A study of Mus musculus with 8 samples.

Results

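Among CD45+ cells sorted from mouse mammary tumors, 649 cells carried transcripts of both Ctsk and Gpnmb and are described here as Gpnmb+ Ctsk+ cells. They were chosen by counts of unique molecular identifiers (UMIs, 1 per captured transcript). A cell needed at least 2 UMIs of Ctsk and 2 of Gpnmb, at most 1 UMI of Cd3d, Cd3e and Cd3g together and at most 1 of Folr2. They were 6.67% of the 9731 cells that had 500 to 6000 detected genes, under 10% mitochondrial counts and at least 2000 UMIs, out of 11430 cells deposited.

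Ctsk encodes cathepsin K, a cysteine protease that cleaves collagen and is best known from bone-resorbing osteoclasts. Gpnmb encodes a type I membrane glycoprotein of the endosomal and lysosomal system that macrophages switch on under lysosomal stress and lipid load. Macrophages that take up much lipid, in fat tissue, arterial plaques and tumors, are called lipid-associated macrophages, and they are usually marked by fatty acid-binding proteins, lipid uptake receptors, lysosomal enzymes and the lipid receptor Trem2.

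The question of the study was how the immune cells of tumors that had become resistant to therapy differ from those of the parental tumor. E0771 is a mammary carcinoma line of C57BL/6 mice, and E0771-Res1 and E0771-Res2 are lines that the authors grew from E0771 tumors that came back once treatment with paclitaxel and anti–PD-1 had ended. Female mice carried 1 of these lines in the mammary fat pad, and the labels name no treatment or age for the mice sequenced. CD45+ cells of each tumor were sorted 18 days after implantation, tagged by mouse and sequenced as 3′ libraries, and the mice used were 2 parental (replicates 1 and 3), 3 with E0771-Res1 and 3 with E0771-Res2. Each resistant group rests on 1 derived line, so that resistance and the other properties of a line cannot be told apart.

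The parental tumors gave 17 and 12 Gpnmb+ Ctsk+ cells. The E0771-Res1 tumors gave 33, 20 and 9, and the E0771-Res2 tumors 253, 99 and 206, so that 558 of the 649 cells came from E0771-Res2. No barcode was shared between mice. The median depth of the cells kept was 8342.5 and 8234 UMIs in parental tumors, 8421, 8565 and 7986.5 in the E0771-Res1 mice and 7346.5, 6218 and 6059 in the E0771-Res2 mice. The E0771-Res2 cells were therefore the shallowest. Medians of the Gpnmb+ Ctsk+ cells themselves ran from 6400 to 11696 UMIs per mouse.

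The gate genes are given as a description only, because they chose the cells. In CPM (counts scaled to the library size of a mouse's gated cells, with mitochondrial, Rpl, Rps and Gm genes left out), Ctsk ran from 396 to 864 over the 8 mice with a median of 607. Gpnmb ran from 990 to 1946 with a median of 1434. Both were highest in the 3 E0771-Res2 mice. Of the 649 cells, 172 lay just inside the gate with exactly 2 Ctsk UMIs and 73 with exactly 2 Gpnmb UMIs. Just outside, 324 cells had 1 Ctsk UMI with 2 or more of Gpnmb, and 52 had 1 Gpnmb UMI with 2 or more of Ctsk. A further 44 cells met the first thresholds but had 2 or more Folr2 UMIs, and 56 had 2 or more Cd3 UMIs.

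The label of lipid-associated macrophages was set beside markers that the gate did not use. Of these, Fabp5 and Mmp12 came with the label and are no independent check. To compare shares of cells with a UMI, each cell was thinned to 3000 UMIs, and cells with fewer were left out. T cells (3 or more Cd3 UMIs) served as a measure of background from free RNA or doublets. Fabp5, a fatty acid-binding protein, was found in 93.1% of Gpnmb+ Ctsk+ cells, in 71.1% of other macrophages and in 60.8% of T cells. Mmp12, the macrophage elastase, was found in 32.4%, 12.5% and 11.6% in the same order, and Fabp4 in 18.2%, 3.8% and 4.1%. Cd68, a lysosomal protein of the myeloid lineage, was found in 99.0%, 90.1% and 52.5%. Spp1, which encodes osteopontin, reached only 19.6% against 14.7% in T cells.

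The markers did not all point one way. Adgre1 (F4/80) was detected in 36.7% of the thinned Gpnmb+ Ctsk+ cells and in 61.7% of other macrophages, though Adgre1 and the C1q genes helped to choose the latter, and Csf1r in 36.7% and 50.2%. Ly6c2, a marker of inflammatory monocytes, was detected in 78.1% against 61.9%, while the monocyte genes Plac8 and Ccr2 were detected in 46.7% and 25.8% against 54.5% and 40.0%. T cells can express these 3 genes themselves and give no background for them. Only 274 of the 649 cells (42.2%) also passed a macrophage gate of at least 5 C1qa, C1qb and C1qc UMIs and 1 Adgre1 UMI. Against those inside that gate, the 375 cells outside it had less Apoe in 6 of 8 mice, though not in the parental mice (2049 and 3052 CPM outside against 1286 and 1319 inside). They had more Ly6c2 in 6 of 8 mice, though not in E0771-Res1 replicates 2 and 3 (572 and 1418 CPM against 1336 and 2508). Fabp5 was higher outside in 5 mice and Mmp12 lower outside in 5, so neither had a common direction, and in the parental and E0771-Res1 mice these values rest on 3 to 21 cells each. Since lipid-associated markers came with low macrophage markers and high Ly6c2 in many cells, the population is named here by its gate.

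The promoters of the gate genes and of Mmp12 are printed because Mitf, Tfeb and Tfe3, the helix-loop-helix factors that drive lysosomal genes, bind extended E-boxes, and Mitf and Tfeb were among the genes higher in these cells. The 250 bases before each start are from RefSeq (GRCm38.p6, plus strand), and TCACGTG and TCATGTG were searched on both strands in the window from 250 bases before to 50 after the start. Of 32851 such windows of all genes, 3.77% held the former, 3.77% the latter and 7.40% either. Capitals mark a match.
Gpnmb, chr6:49036268-49036517: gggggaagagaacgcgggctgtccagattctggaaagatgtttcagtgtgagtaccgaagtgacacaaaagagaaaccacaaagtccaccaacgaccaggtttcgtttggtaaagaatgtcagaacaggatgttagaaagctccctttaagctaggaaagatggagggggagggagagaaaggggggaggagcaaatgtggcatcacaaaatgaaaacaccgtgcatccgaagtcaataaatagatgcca
Ctsk, chr3:95498960-95499209: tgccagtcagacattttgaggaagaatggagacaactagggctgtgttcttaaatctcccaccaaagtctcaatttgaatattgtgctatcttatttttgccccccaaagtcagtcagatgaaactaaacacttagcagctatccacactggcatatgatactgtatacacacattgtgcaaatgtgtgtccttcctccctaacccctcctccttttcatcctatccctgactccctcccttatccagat
Mmp12, inner start, chr9:7347124-7347373: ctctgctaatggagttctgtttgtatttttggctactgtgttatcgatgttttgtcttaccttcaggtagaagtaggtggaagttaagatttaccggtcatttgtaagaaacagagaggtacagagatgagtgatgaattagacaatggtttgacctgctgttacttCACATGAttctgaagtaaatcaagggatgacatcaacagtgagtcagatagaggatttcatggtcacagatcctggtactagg
The windows of Gpnmb (gene at chr6:49036546-49070929) and Ctsk (chr3:95499256-95509362) held neither run of letters. The inner of the 2 annotated starts of Mmp12 (chr9:7344381-7369499) held CACATGA, the reverse complement of TCATGTG, 83 to 77 bases before the start, and the outer start held neither. The acid phosphatase gene Acp5 was also searched, and 1 of its 3 starts held CACATGA 90 to 84 bases before it. A match is a description of the sequence only.

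Gpnmb+ Ctsk+ cells were rare in parental and E0771-Res1 tumors and frequent in E0771-Res2 tumors. They made up 1.62% and 2.17% of CD45+ cells in the parental mice, 1.74%, 3.58% and 1.05% in the E0771-Res1 mice and 15.0%, 7.20% and 11.8% in the E0771-Res2 mice. Every E0771-Res2 mouse lay above all 5 others, and the parental and E0771-Res1 mice overlapped. Exact 95% intervals, which cover counting error only, ran from 13.3% to 16.7% for the highest E0771-Res2 mouse and from 5.89% to 8.70% for the lowest, against 2.20% to 5.47% for the highest of the other 5.

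**Figure D1:**
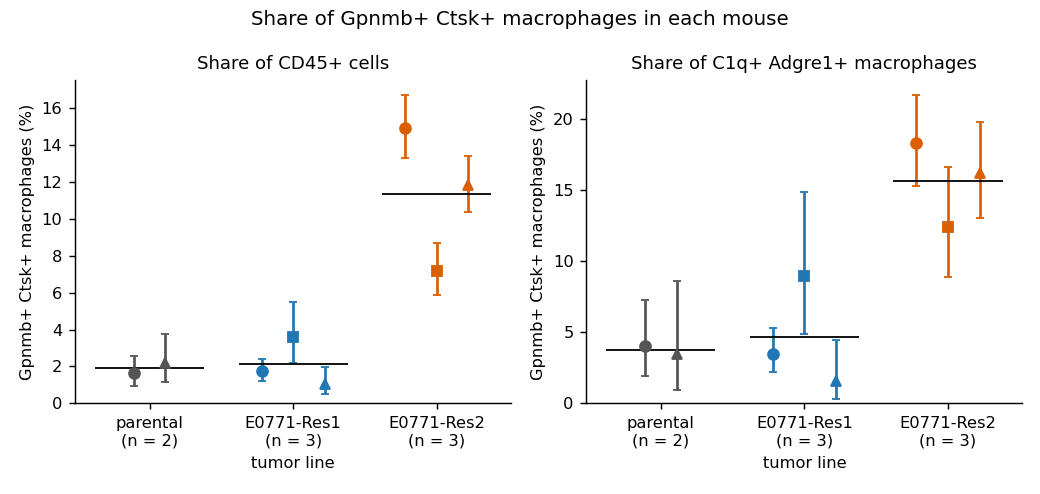
Share of Gpnmb+ Ctsk+ cells (in percent, 1 point per mouse, bars are exact 95% intervals from counting, black lines are group means) among all CD45+ cells and among C1q+ Adgre1+ macrophages, in parental, E0771-Res1 and E0771-Res2 tumors. The 3 E0771-Res2 mice lie at 7.20% to 15.0% of CD45+ cells, above every other mouse.

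The mean of the E0771-Res2 mice was 11.3% ± 3.90 (SD, n = 3), against 2.12% ± 1.31 (SD, n = 3) with E0771-Res1 and 1.90% ± 0.392 (SD, n = 2) in the parental group. E0771-Res2 lay 9.43 percentage points above parental (ratio of means 5.97, exact permutation over mice, two-sided, p = 0.2, and 0.4 adjusted over 4 comparisons). It lay 9.21 points above E0771-Res1 (ratio 5.34, exact p = 0.1, adjusted p = 0.4). The smallest p that these group sizes allow is 0.1, so neither could pass 0.05. E0771-Res1 differed from parental by 0.223 points (exact p = 0.9) and both resistant lines together by 4.83 points (exact p = 0.321, smallest possible 0.0357), and the sign for E0771-Res1 changed with the settings.

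The rise in E0771-Res2 was also present within macrophages. Of the cells that passed the C1q and Adgre1 gate, 4.02% and 3.45% were Gpnmb+ Ctsk+ in the parental mice, 3.5%, 8.97% and 1.54% in the E0771-Res1 mice and 18.3%, 12.4% and 16.2% in the E0771-Res2 mice. Again the E0771-Res2 mice did not overlap any other mouse. E0771-Res2 averaged 15.6% ± 3.02 (SD, n = 3), E0771-Res1 4.67% ± 3.85 (SD, n = 3) and the parental group 3.73% ± 0.401 (SD, n = 2), and E0771-Res2 was 11.9 points above parental and 10.97 above E0771-Res1 (exact permutation p = 0.1 in both, the smallest possible, adjusted p = 0.2). The denominator itself was similar, at 22.4%, 26.7% and 28.1% of CD45+ cells on average in the 3 groups. Cells were also thinned to 3000 UMIs before gating, and those with fewer were left out. This kept between 1549 of 1741 cells (E0771-Res2 replicate 3) and 1011 of 1050 (parental replicate 1). The shares of CD45+ cells were then 0.966%, 0.757% and 5.87% in parental, E0771-Res1 and E0771-Res2 tumors on average, and the E0771-Res2 mice still did not overlap the others. Of macrophages the thinned means were 0.382%, 2.37% and 5.29%, and there the groups overlapped, since E0771-Res1 replicate 2 (4.598%) lay above E0771-Res2 replicate 2 (3.68%).

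Doublets could not be called. Scrublet marked 53 of the 11430 cells (0.464%), which was taken as a failed call, and 33 of the 649 Gpnmb+ Ctsk+ cells were among the highest 5% of scores of their mouse. Of 832 T cells, 42 (5.05%) also carried 2 or more UMIs of both gate genes, and these had a median of 15196.5 UMIs against 10274.5 over all T cells and 7418 in Gpnmb+ Ctsk+ cells. That share was 10.3% with E0771-Res2, 1.23% with E0771-Res1 and 2.26% in parental tumors. The part of doublets or free RNA in the share of Gpnmb+ Ctsk+ cells was not tested.

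Gpnmb+ Ctsk+ cells were compared with other macrophages of the same mice, which passed the macrophage gate and had at most 1 UMI of Folr2 and at most 1 of Ctsk and Gpnmb together (1556 cells). They had more transcripts of fatty acid-binding proteins, the lipid receptor Cd36, activin A (Inhba), Igf1, the interleukin-7 receptor Il7r and Mmp12. They had fewer transcripts of Cx3cr1, Cd81 and most MHC class II and cell cycle genes of the lists. Of 8163 genes tested, 788 (9.65%) were higher and 840 (10.3%) lower at an adjusted p under 0.05 (edgeR quasi-likelihood test on the sums of each mouse and class, blocked by mouse, 7 mice). E0771-Res1 replicate 3 had only 9 Gpnmb+ Ctsk+ cells and was left out of this fit and of the later fits. In all 7 mice 397 (4.86%) were higher in Gpnmb+ Ctsk+ cells and 976 (12.0%) lower. Without TMM scaling 610 were higher and 1287 lower, 32.2% higher against 48.4%, since the median of all genes moved from -0.03 to -0.12. Genes that vary with Ctsk or Gpnmb from cell to cell differ between such gates by construction, so the test says that a difference recurred over mice, and the gate genes of all classes were left out. The median mitochondrial share per mouse was 0.510% to 0.986% in Gpnmb+ Ctsk+ cells and 1.23% to 1.75% in other macrophages. It was lower in Gpnmb+ Ctsk+ cells of every mouse, and its part in the differences was not tested.

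Fabp5 ran from 3842 to 8669 CPM with a median of 7842 in the Gpnmb+ Ctsk+ cells of the 8 mice, and from 1059 to 2267 with a median of 1637 in other macrophages. Every mouse was higher in Gpnmb+ Ctsk+ cells, and the ranges did not overlap. The log2 fold change was 2.37 ± 0.08 (SE, adjusted p = 3.1e-17). Mmp12 ran from 151 to 1815 CPM (median 437) against 37.5 to 290 (median 103), with a log2 fold change of 2.62 ± 0.13 (adjusted p = 6.4e-14). The ranges overlapped between mice, and E0771-Res1 replicate 3, not in the fit, was the one mouse lower in Gpnmb+ Ctsk+ cells (151 against 247 CPM). In E0771-Res1 replicate 1, the highest mouse, 1 cell held 319 of 571 Mmp12 counts. Fabp4 ran from 144 to 291 CPM (median 223) against 6.37 to 41.4 (median 18.5), with no overlap and a log2 fold change of 3.23 ± 0.12 (adjusted p = 3.1e-16).

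Inhba, the subunit of activin A, had the largest rise among genes with an average log2 CPM of at least 5 that moved the same way in all 7 mice. It ran from 46.6 to 443 CPM (median 123) against 3.26 to 30.3 (median 9.95), with a log2 fold change of 4.17 ± 0.20 (adjusted p = 3.9e-14). Igf1, a growth factor made by many tissue macrophages, ran from 102 to 394 CPM (median 278) against 9.04 to 58.7 (median 32.8), and its log2 fold change was 3.29 ± 0.14 (adjusted p = 2.1e-15). Il7r ran from 338 to 665 CPM (median 535) against 55.5 to 137 (median 78.7), with 2.86 ± 0.11 (adjusted p = 3.6e-16). For all 3 genes the ranges of the 8 mice did not overlap. The other genes of the 10 largest rises were F7 (coagulation factor VII), Lhfpl2, Tnni2 and Cd36, with log2 fold changes of 2.65, 2.45, 2.39 and 2.33.

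**Figure D2:**
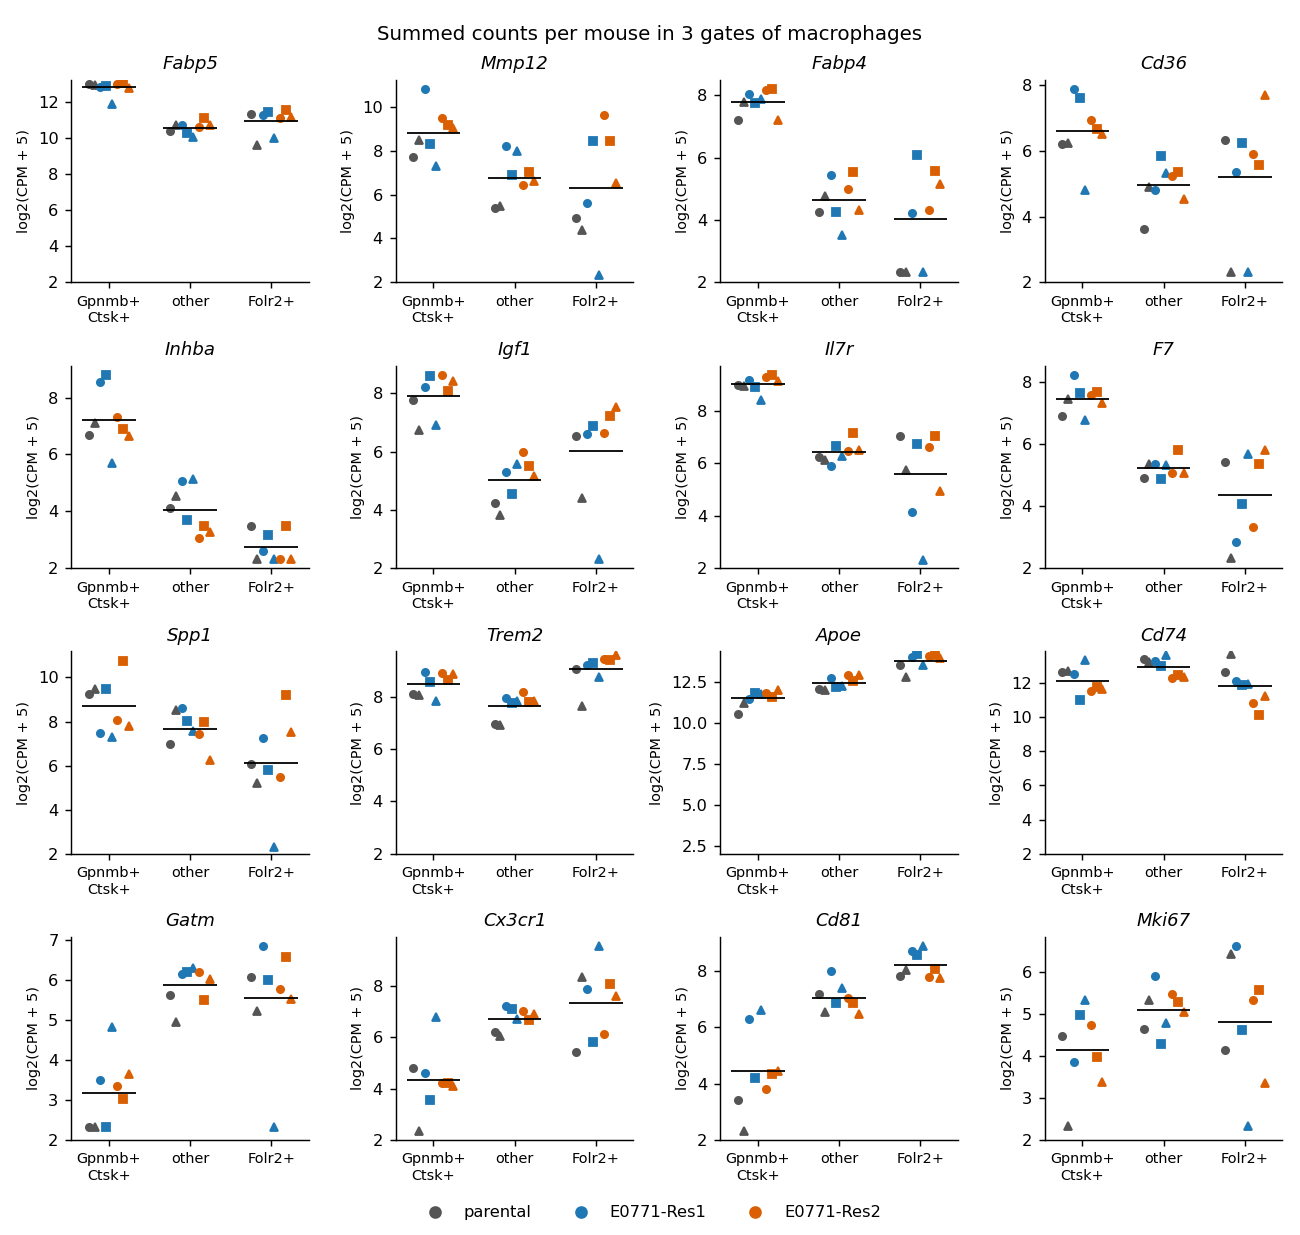
Levels of 16 genes as log2(CPM + 5), 1 point per mouse, in Gpnmb+ Ctsk+ cells (members), other macrophages and Folr2+ macrophages, with the mean as a line. Fabp5, Fabp4, Inhba, Igf1 and Il7r stand above other macrophages in every mouse, while Apoe and Cd74 stand below them.

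The largest falls were in Gatm (arginine:glycine amidinotransferase, -3.44 ± 0.24), Cx3cr1 (the fractalkine receptor, -2.99 ± 0.17), Fcrl5 (-2.82), the tetraspanin Cd81 (-2.71 ± 0.20) and the inhibitory lectin Siglece (-2.63). Gatm had a median of 4.07 CPM against 63.5, and Cd81 of 14.2 against 120. The ranges of Gatm did not overlap, while Cx3cr1 (0 to 105 against 60.7 to 146) and Cd81 (0 to 93.1 against 83.9 to 251) overlapped through E0771-Res1 replicate 3. Clec4b1, Ighm, Tmem176b, Tmem176a and Pclaf fell by 2.21, 2.15, 2.06, 1.97 and 1.96 on the log2 scale. Ighm is an immunoglobulin gene, and its call was the only one of these 20 genes lost in any alternative fit (at most 2 lymphoid UMIs per cell).

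Of the 25 genes of the lipid-associated macrophage list, 20 were higher and 2 lower than in other macrophages, with a median log2 fold change of 1.03 against -0.03 over all genes. The list was written with earlier results of these data known, so the count is a description and no independent check. Trem2, the lipid receptor, rose by 1.03 ± 0.09, lipoprotein lipase Lpl by 1.12, the tetraspanin Cd9 by 1.51, galectin-3 Lgals3 by 1.25, the lipid droplet coat protein Plin2 by 1.00, lysosomal acid lipase Lipa by 0.99 and Spp1 by 1.36. The 2 lower genes were Apoe, the main lipoprotein of macrophages, at -0.92 ± 0.09, and the integrin Itgax at -0.59. Apoe ran from 1463 to 4021 CPM in Gpnmb+ Ctsk+ cells and from 4135 to 7893 in other macrophages, with no overlap. Spp1 was carried by few cells, since 1 cell held 624 of the 1135 counts in E0771-Res2 replicate 2 and 69 of the 70 in parental replicate 3.

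Among genes of the lysosome more were higher than lower. Of 42 lysosomal hydrolases and membrane proteins, 22 were higher and 4 lower (median 0.35), and of 18 subunits of the vacuolar ATPase, which acidifies the lysosome, 12 were higher and none lower at that threshold (median 0.35). Cathepsin D (Ctsd) had a median of 1828 CPM against 881 and rose by 1.09 ± 0.08. Atp6v0d2, a subunit known from osteoclasts and macrophages, rose by 3.49 ± 0.31 from a low level (median 44.7 against 4.76 CPM), Atp6v1c1 by 1.21 and Atp6v1a by 0.84. Ctsc fell by 0.95. Among 26 transcription factors of lysosomal and macrophage genes, 11 were higher and 3 lower (median 0.28). Mitf rose by 1.31, Tfec by 1.13 and Tfeb by 0.54, while Tfe3 (-0.05) did not pass the test. Bhlhe41 rose by 2.72, Egr2 by 1.16, Bhlhe40 by 0.92 and Cebpb by 0.72, and Maf, a factor of resident macrophages, fell by 0.59. The osteoclast list, which holds Atp6v0d2, gave no common direction, with 3 higher and 3 lower of 13, and Acp5, the tartrate-resistant acid phosphatase, fell by 0.46.

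Of 24 genes of cholesterol efflux and lipid storage, 11 were higher and 3 lower. Hilpda, which restrains lipid droplet breakdown, rose by 1.77 (median 268 against 88.7 CPM) and the cholesterol-esterifying enzyme Soat1 by 0.93, whereas Ch25h, Pltp and Apoe fell by 2.04, 1.62 and 0.92. None of 17 cholesterol synthesis genes was higher and 2 were lower (edgeR), with a median of -0.35. That count of lower genes is close to the share over all genes, 10.3%. Of 22 hypoxia and glycolysis genes 16 were higher and none lower (median 0.50), among them Vegfa (0.98), the glucose transporter Slc2a1 (0.84), Ero1l (1.04) and Egln3 (1.49). Of 16 genes of the NRF2 antioxidant response and of iron handling 13 were higher and none lower (median 0.60), led by the cystine transporter Slc7a11 (1.71), Srxn1 (1.13) and the iron exporter Slc40a1 (1.10). Ferritin heavy chain Fth1, on average the most abundant transcript of these cells at 48740 CPM, rose by 0.88.

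Most MHC class II and cell cycle genes of the lists were lower. Of 8 MHC class II genes 7 were lower and none higher (median -0.87), with Ciita, their master activator, at -1.29 and the invariant chain Cd74 at -0.78. Cd74 ran from 2017 to 10070 CPM in Gpnmb+ Ctsk+ cells and from 4849 to 12666 in other macrophages, so the ranges overlapped, although each mouse was lower in Gpnmb+ Ctsk+ cells. Of 19 cell cycle genes 18 were lower (median -1.36). Of 15 resident-type macrophage genes 9 were lower and 2 higher (median -0.53), the 2 being Igf1 and Slc40a1. Monocyte genes split, with 5 of 18 higher and 10 lower: Ly6c2 (0.69), Clec4e (1.12), Thbs1 (1.41), F10 (1.31) and Gsr (0.40) rose, whereas Plac8, Ccr2, Chil3 and Cd300e fell by 0.84, 0.65, 0.82 and 1.53.

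Inflammatory cytokines and chemokines also split, with 7 of 21 higher and 6 lower. Il1a (2.66), Nos2 (2.10), Il1rn (1.16), Ccl5 (1.02), Cxcl2 (0.81) and Ptgs2 (0.65) were among the higher ones, and the interferon-induced chemokines Cxcl9 (-1.37) and Cxcl10 (-0.75) and the monocyte attractant Ccl7 (-0.74) among the lower. Of 20 interferon response genes 6 were slightly higher and none lower, with Isg15 at 0.39. Matrix and growth factor genes gave 11 higher and 3 lower of 24, with Mmp8 at 2.07 and Fn1 at -1.45. Of 16 checkpoint and regulatory genes 2 were higher, Cd274 (PD-L1, 0.53) and Lilrb4a (0.71), and 3 lower. Over all 8163 genes tested 9.65% were higher and 10.3% lower, so counts this small are no result about a list. Receptors and bridges for apoptotic cells (5 higher and 4 lower of 15), complement genes beyond C1q (2 and 2 of 9), nuclear genes of oxidative phosphorylation (0 and 2 of 22) and genes of dissociation stress (5 and 4 of 17) gave medians of -0.03, 0.20, -0.12 and -0.13.

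**Figure D3:**
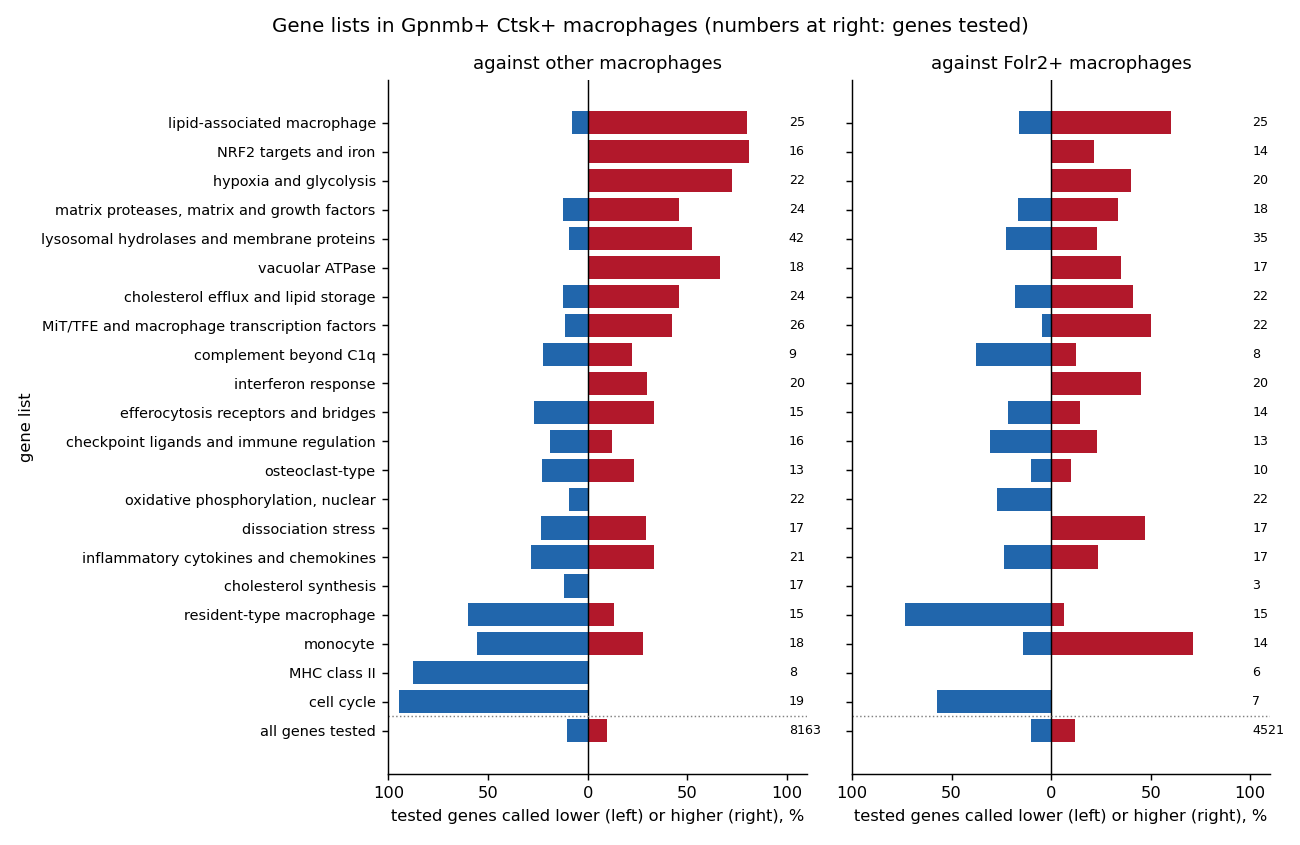
Percent of the tested genes of each list that were higher (to the right) or lower (to the left) in Gpnmb+ Ctsk+ cells at an adjusted p under 0.05 in edgeR, against other macrophages and against Folr2+ macrophages. Lipid-associated, NRF2 and iron, hypoxia and vacuolar ATPase genes are mostly called higher against other macrophages, and MHC class II and cell cycle genes lower.

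Since other macrophages had to carry C1q and Adgre1, the comparison was repeated with the 274 Gpnmb+ Ctsk+ cells that passed the same gate. In 6 mice it gave 458 higher (5.74%) and 409 lower (5.13%) of 7975 genes, which held 445 of the 788 higher and 378 of the 840 lower genes of the whole population. The interferon genes then gave none higher and 1 lower of 20 in edgeR, close to the share of lower genes over all genes, and the NRF2 and iron genes 8 higher and none lower of 16.

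Folr2+ macrophages, a C1q-high population that resembles resident macrophages (172 cells with at least 2 Folr2 UMIs), differed from Gpnmb+ Ctsk+ cells in another way. Trem2 was lower in Gpnmb+ Ctsk+ cells, 10 of 14 monocyte genes were higher and 2 lower, and no MHC class II gene passed the test. Apoe was lower here, as it was against other macrophages. In 6 mice with at least 10 cells of both kinds, 550 of 4521 genes (12.2%) were higher and 458 (10.1%) lower (edgeR, as above), and 457 (10.1%) and 664 (14.7%) moved the same way in all 6. The test gave 465 and 687 without TMM scaling, 40.4% higher against 54.6%. These mice had 15 to 71 Folr2+ macrophages each, and their values are coarser for that reason. Folr2+ macrophages were also deeper, with medians of 9856 to 16648 UMIs per mouse against 6400 to 9308 in Gpnmb+ Ctsk+ cells. The part of this depth in the differences was not tested. Genes that vary with Folr2, C1q or Adgre1 from cell to cell also differ between these gates by construction.

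Trem2 ran from 221 to 486 CPM (median 379) in Gpnmb+ Ctsk+ cells and from 194 to 764 (median 603) in Folr2+ macrophages. The ranges overlapped, and the log2 fold change was -0.57 ± 0.12 (adjusted p = 0.0021). Apoe was lower in every mouse, with medians of 3205 against 16163 CPM and a log2 fold change of -2.37 ± 0.11. In order of the median, Trem2 therefore rose from other macrophages (217 CPM) over Gpnmb+ Ctsk+ cells to Folr2+ macrophages, and both steps passed the test.

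Inhba was nearly absent from Folr2+ macrophages, with 4 counts over all mice, and its log2 fold change was 6.99 ± 0.36 (adjusted p = 7.3e-10). Cd200, an inhibitory ligand, ran from 23.3 to 113 CPM against 0 to 16.2 and rose by 3.97 ± 0.45. Slpi, Mmp8, F7, Ly6i, coagulation factor X (F10), Fabp4, Il7r and Rhov rose by 3.85, 3.79, 3.73, 3.66, 3.49, 3.30, 3.21 and 3.18. Fabp5 rose by 1.71 ± 0.09 and Mmp12 by 1.67 ± 0.54, of which the Mmp12 call was lost in 9 alternative fits. The largest falls were in Fcrls (-5.23 ± 0.23), the apoptotic cell bridge Gas6 (-4.40), Ctla2b (-3.83), Cbr2 (-3.67), Cd81 (-3.66), Gatm (-3.51), Ch25h (-3.40), Cx3cr1 (-3.27), Igfbp4 (-3.25) and the scavenger receptor Stab1 (-3.23). Fcrls had a median of 4.70 CPM against 222, with no overlap between the 8 mice of either kind.

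Of the lipid-associated list 15 of 25 genes were higher and 4 lower than in Folr2+ macrophages (median 0.64 against -0.01 over all genes). The 4 were Apoe, Trem2, Ctsl (-0.72) and Lgals1 (-0.46). Of 15 resident-type genes 11 were lower and 1 higher (median -2.18), and of 14 monocyte genes 10 were higher and 2 lower (median 1.96), with Ly6c2 at 2.01 ± 0.20, Clec4e at 2.98 and Chil3 at 2.37. Lysosomal genes gave 8 higher and 8 lower of 35 (median -0.06) and vacuolar ATPase subunits 6 higher and none lower of 17 (edgeR, median 0.26). Transcription factors gave 11 higher and 1 lower of 22, with Egr2 at 2.16, Bhlhe40 at 1.97 and Cebpb at 1.65. Hypoxia genes gave 8 higher and none lower of 20, with Vegfa at 3.11, and interferon genes 9 higher and none lower of 20. Genes of dissociation stress were higher for 8 of 17 with none lower (median 0.39), a measured difference in handling genes that stands beside these results and whose part in them was not tested. None of the 6 MHC class II genes passed in either direction (edgeR, median 0.52).

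Within Gpnmb+ Ctsk+ cells, few genes separated the tumors. The tumor comparisons share their mice, and the 3 with parental tumors rest on 17 and 12 cells of 2 mice. Of 4856 genes, 3 (0.0618%) were higher and 10 (0.206%) lower in resistant than in parental tumors (edgeR, 1 fit over 3 groups, 7 mice), with 589 genes at an unadjusted p under 0.05. The mice of these groups did not overlap for 537 (11.1%) higher and 524 (10.8%) lower genes, a share to set beside each gene without overlap named here. The counts were 13 (0.268%) and 18 (0.371%) for E0771-Res1 against parental, with no overlap for 19.2% and 19.6% of all genes. They were 0 (0.0%) and 5 (0.103%) for E0771-Res2 against parental, with 510 at an unadjusted p under 0.05 and 3 and 16 by DESeq2, and no overlap for 18.3% and 17.8%. For E0771-Res2 against E0771-Res1 they were 3 (0.0618%) and 20 (0.412%), with no overlap for 16.9% and 15.0%. None of the 25 lipid-associated genes passed between resistant and parental tumors in edgeR, with a median of 0.25.

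Ly6c2 and the interferon gene Isg15 were lower in the resistant tumors. Ly6c2 measured 2949 and 4176 CPM in the parental mice, 1103, 1098 and 1793 in the E0771-Res1 mice and 2261, 1721 and 1692 in the E0771-Res2 mice. Both parental mice lay above all 6 resistant mice, including E0771-Res1 replicate 3, which was not in the fit, and the log2 fold change was -1.30 ± 0.16 (adjusted p = 0.0012). Isg15, an interferon-induced ubiquitin-like protein, measured 3498 and 3789 CPM in the parental mice, 2041, 1422 and 2899 in the E0771-Res1 mice and 2064, 1920 and 1722 in the E0771-Res2 mice. The groups did not overlap, and the log2 fold change was -1.0 ± 0.15 (adjusted p = 0.0095). Of the 20 interferon genes 19 had a negative fold change (median -0.97 against 0.00 over all genes), but Isg15 alone passed the test. The call of Isg15 was lost with a replicate block, with a looser gate and without parental replicate 3, E0771-Res2 replicate 2 or E0771-Res2 replicate 3, and that of Ly6c2 with a looser gate, which also adds E0771-Res1 replicate 3. A stricter gate and a limit of 2 lymphoid UMIs per cell each left parental replicate 3 with 9 cells and so out of the fit, and with 1 parental mouse the effect of these limits cannot be told apart from that of the lost mouse. Ly6c2 lost its call in both, and under the lymphoid limit none of the 10 genes named by the rule for this comparison passed in edgeR, among them Ly6c2 (-0.93), Isg15 (-0.33), Ccl9 (1.98) and Pf4 (1.62), and 485 of all genes had an unadjusted p under 0.05. The 6 MHC class II genes were also all negative (median -0.78) and none passed in edgeR.

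Gcnt2, a glycosyltransferase of the branching of sugar chains, measured 121 and 143 CPM in parental mice and 6.61 to 81.5 in the 6 resistant mice, with no overlap and a log2 fold change of -2.15 ± 0.37 (adjusted p = 0.024). The interferon-induced GTPase Igtp (-1.41), Tent5a (-1.20), Plbd1 (-1.19), Ly6a (-0.98) and the nuclease Samhd1 (-0.81) also fell. These 6 genes lost their call without parental replicate 1, without E0771-Res2 replicate 2 and without E0771-Res2 replicate 3, as Pf4 did. Without parental replicate 3 the call was lost for Pf4 and for all of the 6 but Tent5a, and with a replicate block for all of the 6 but Gcnt2. Il1r2, the decoy receptor of interleukin-1, was below the level required for naming and is given after its values were seen, at 116 and 81.5 CPM against 13.2 to 23.3 (log2 fold change -2.63, adjusted p = 0.0096).

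Of the 3 genes higher in resistant tumors, the chemokine Ccl9 measured 225 and 183 CPM in the parental mice, 1929, 1177 and 140 in the E0771-Res1 mice and 481, 559 and 432 in the E0771-Res2 mice. The log2 fold change was 2.08 ± 0.25 (adjusted p = 0.0012), yet E0771-Res1 replicate 3, with 9 cells and outside the fit, was below both parental mice. The platelet factor Pf4 measured 110 and 30.6, then 801, 298 and 69.8, then 344, 448 and 325 CPM in the same order (log2 fold change 2.54 ± 0.45, adjusted p = 0.024), and that mouse again lay among the parental ones. Hmox1 was the third, named after its values were seen because its groups overlapped (1.73, adjusted p = 0.025).

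**Figure D4:**
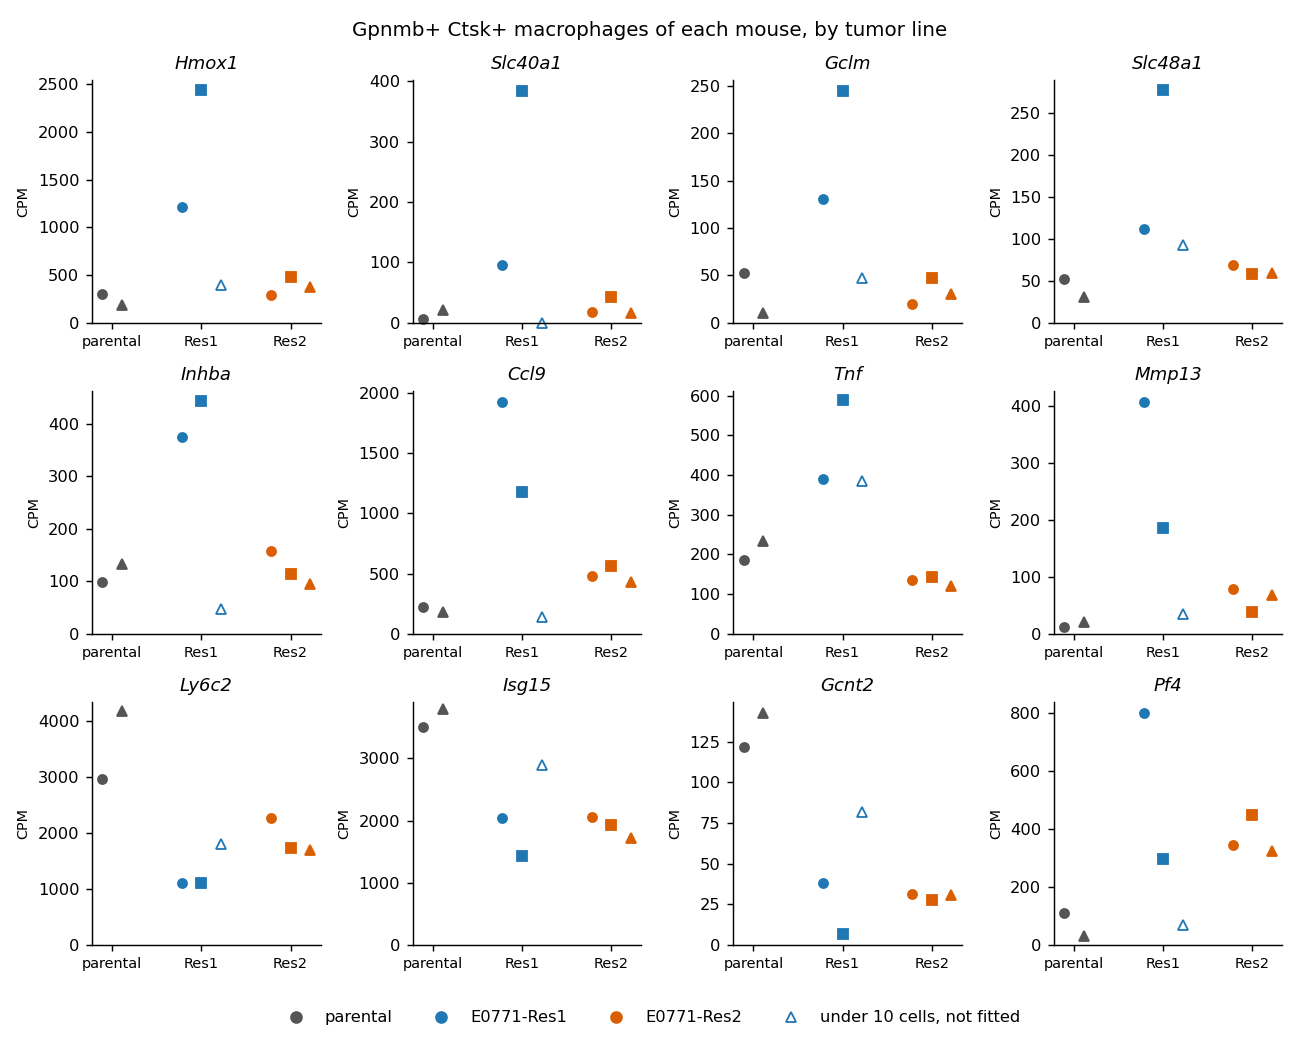
CPM of 12 genes in Gpnmb+ Ctsk+ cells, 1 point per mouse, for parental, E0771-Res1 and E0771-Res2 tumors, with an open triangle for E0771-Res1 replicate 3, whose 9 cells were not fitted. The open triangle lies near the parental and E0771-Res2 points for Hmox1, Slc40a1, Gclm and Ccl9, and with the other E0771-Res1 mice for Tnf.

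Between the resistant lines, some genes of heme, iron and oxidative stress were lower in E0771-Res2. Hmox1, which degrades heme, measured 295 and 183 CPM in the parental mice, 1214, 2434 and 396 in the E0771-Res1 mice and 287, 482 and 371 in the E0771-Res2 mice. The 2 fitted E0771-Res1 mice lay above all others, and E0771-Res2 was lower by 2.26 ± 0.25 on the log2 scale (adjusted p = 0.00022). E0771-Res1 replicate 3 lay within the range of E0771-Res2. In E0771-Res1 replicate 1, 1 of 33 cells held 304 of the 382 Hmox1 counts, and the mouse measured 259 CPM without it, close to the parental level, whereas replicate 2 measured 2056 CPM without its top cell.

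The same cell of E0771-Res1 replicate 1 held 23 of 30 counts of the iron exporter Slc40a1 and 36 of 41 of Gclm, a subunit of the enzyme that starts glutathione synthesis. Slc40a1 measured 95.4, 384 and 0 CPM in the E0771-Res1 mice and 17.0, 42.7 and 16.0 in the E0771-Res2 mice (log2 fold change -3.22 ± 0.49, adjusted p = 0.0025). Gclm measured 130, 245 and 46.6 CPM against 19.2, 47.2 and 30.5 (-2.58 ± 0.36, adjusted p = 0.0012). Without the top cell of each mouse, Gclm was 16.6 CPM in E0771-Res1 replicate 1 and 180 in replicate 2. Of the 2 fitted E0771-Res1 mice, only replicate 2 therefore stayed high for Hmox1 and Gclm without its top cell. Leaving out 1 of these mice cannot decide how far the difference rests on replicate 2, since 1 fitted E0771-Res1 mouse then remains. Of the 14 NRF2 and iron genes tested, 6 were lower in E0771-Res2 and none higher (edgeR), with a median of -0.73 against 0.00 over all genes. The calls of Hmox1, Gclm and Slc40a1 between the lines were all lost with at most 2 lymphoid UMIs per cell, where the same 5 mice of the 2 lines were fitted.

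Tnf, the main inflammatory cytokine of macrophages, measured 391, 589 and 384 CPM in the E0771-Res1 mice and 135, 142 and 121 in the E0771-Res2 mice, and 185 and 234 in parental mice. Here all 3 E0771-Res1 mice, also the one outside the fit, lay above every other mouse. The log2 fold change between the lines was -1.85 ± 0.18 (adjusted p = 7.4e-05), although 1 cell gave 90 of the 123 counts of E0771-Res1 replicate 1, which measured 112 CPM without it, below all 3 E0771-Res2 mice. The call of Tnf was lost with a stricter gate and with cells of 5000 to 20000 UMIs. Of 17 inflammatory genes 4 were lower in E0771-Res2 and none higher (edgeR, median -0.78), namely Tnf, Ccl9 (-1.70), Ccl6 (-1.51) and Cxcl2 (-1.27). The calls of Ccl9 and Ccl6 were also lost with cells of 5000 to 20000 UMIs. Ccl9 lost its call with a looser gate as well, and Ccl6 without E0771-Res1 replicate 1, E0771-Res2 replicate 1 or E0771-Res2 replicate 3.

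Of 16 genes of the matrix and growth factor list, Mmp13 alone was lower in E0771-Res2 than in E0771-Res1 and none was higher (edgeR, median -0.01). The collagenase Mmp13 measured 407, 185 and 34.9 CPM in the E0771-Res1 mice and 78.1, 38.1 and 67.9 in the E0771-Res2 mice, against 11.6 and 20.4 in parental mice. It was lower in E0771-Res2 than in E0771-Res1 by 2.31 ± 0.28 on the log2 scale (adjusted p = 0.00022) and higher in E0771-Res1 than in parental tumors by 4.44 ± 0.65 (adjusted p = 0.0033). Both parental values lay below the level of 3 counts (17.3 and 30.6 CPM), so the size of the rise over parental tumors is uncertain. Inhba measured 375, 443 and 46.6 CPM against 157, 114 and 95.4, and 98.3 and 132 in parental mice, with a log2 fold change of -1.71 ± 0.21 between the lines. For both genes E0771-Res1 replicate 3 lay below both other mice of its group and below all 3 E0771-Res2 mice. Podoplanin (Pdpn) and the heme transporter Slc48a1 were lower in E0771-Res2 by 2.72 and 1.46, and Napsa (1.03), Slfn4 (0.92) and AY036118 (0.88) were higher. The calls of Slc48a1, Napsa, Slfn4 and AY036118 were all lost with a replicate block, without any 1 of the 3 E0771-Res2 mice and with cells of 5000 to 20000 UMIs. Between the lines the Inhba call was lost with a stricter gate and with cells of 5000 to 20000 UMIs. The Mmp13 call was lost without E0771-Res1 replicate 1, which left 1 fitted mouse of that line.

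Against parental tumors, E0771-Res1 cells also had more Pdpn (3.41), Ccl9 (2.93), Pf4 (2.88), Hmox1 (2.86), Ccl6 (2.19), Inhba (1.87), Cd36 (1.64), the peroxidase Prdx1 (1.46) and cathepsin L, Ctsl (1.28). They had less Slfn9 (-3.48), Gcnt2 (-2.20), Tnni2 (-2.11), Igtp (-1.84), Ly6c2 (-1.69), Plbd1 (-1.60), Napsa (-1.43), Tent5a (-1.39), Slfn4 (-1.15) and Ly6a (-1.13). The 2 groups compared had 2 fitted mice each, within the fit over 3 groups, and the same limit of single cells in E0771-Res1 replicate 1 applies. With cells of 5000 to 20000 UMIs, where the same mice were fitted, 12 of the 20 genes named here by the rule lost their call. Of the 20 genes named by the rule for this comparison, 19 lost their call with a looser gate (with E0771-Res1 replicate 3 added), 12 with a replicate block, 12 without E0771-Res2 replicate 2 or without replicate 3, 10 without parental replicate 1 and 12 without parental replicate 3, and 9 without E0771-Res1 replicate 1.

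The 5 genes lower in E0771-Res2 than in parental tumors were Ccl8 (-2.84 ± 0.44, adjusted p = 0.015), Gcnt2 (-2.10), Ccl12 (-2.04 ± 0.34, adjusted p = 0.020), Isg15 (-0.95) and Il1r2 (-2.52). Ccl8 and Ccl12, attractants of monocytes, rested on 1 mouse. Ccl8 measured 572 and 71.3 CPM in the parental mice and 24.4 to 61.1 in the E0771-Res2 mice, and Ccl12 1012 and 204 against 133 to 194. The groups did not overlap, but parental replicate 3 was close to E0771-Res2 for both. One of the 17 cells of parental replicate 1 held 149 of its 175 Ccl12 counts and 45 of its 99 Ccl8 counts, and without it the mouse measured 173 and 359 CPM. Without the highest 5% of Scrublet scores Ccl12 turned to 0.0531. Ccl8, Gcnt2, Ccl12 and Isg15 all lost their call without parental replicate 1 and with a looser gate, and no gene was called without E0771-Res2 replicate 2 or without replicate 3 (edgeR, 359 and 342 genes at an unadjusted p under 0.05).

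Whether a change between tumors was larger in Gpnmb+ Ctsk+ cells than in other macrophages of the same mice was tested as an interaction. Of 8163 genes 1 (0.0123%) had a higher and 3 (0.0368%) a lower value in resistant tumors, all 4 of them chemokines (edgeR, 7 mice). In other macrophages Ccl12 measured 525 and 540 CPM in parental mice and 471 to 1249 in the 6 resistant mice, while in Gpnmb+ Ctsk+ cells it measured 1012 and 204 against 69.8 to 413. The parental mice were thus close to each other in other macrophages and far apart in Gpnmb+ Ctsk+ cells.

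**Figure D5:**
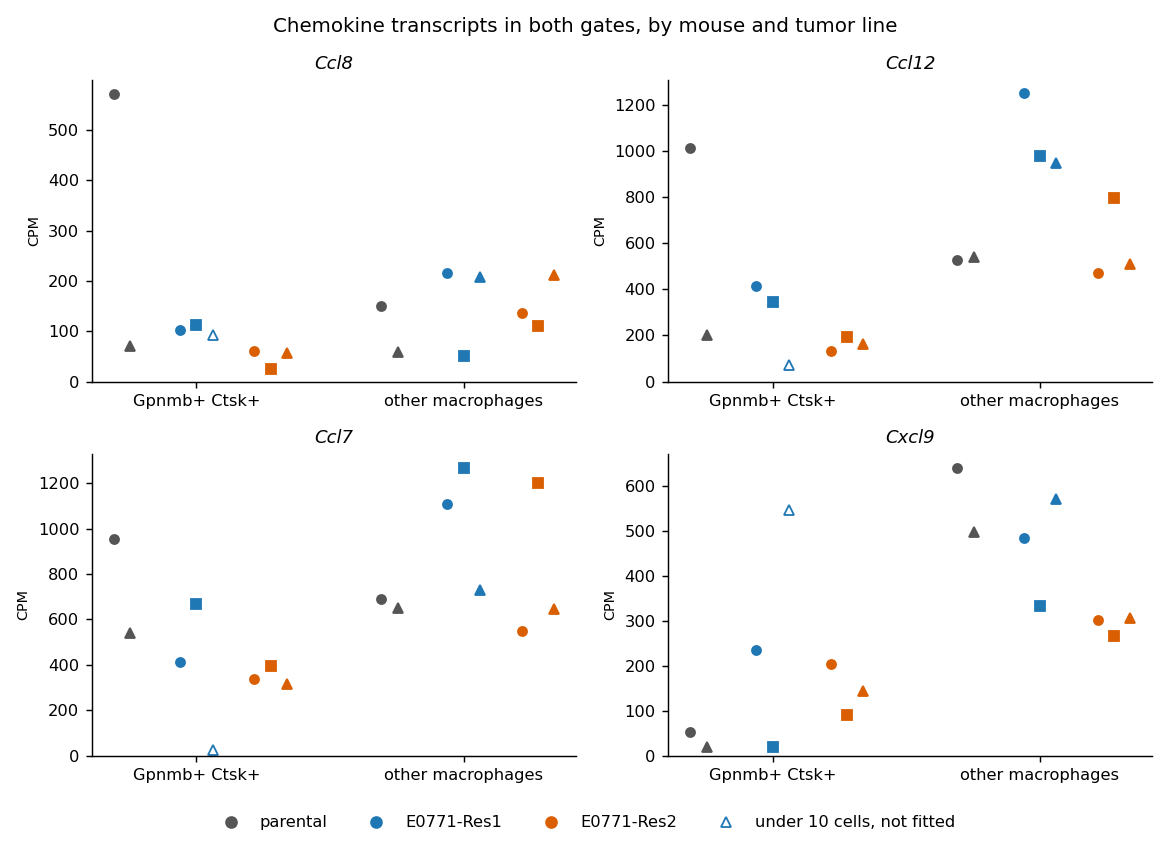
CPM of Ccl8, Ccl12, Ccl7 and Cxcl9 per mouse in Gpnmb+ Ctsk+ cells (members) and in other macrophages, for parental, E0771-Res1 and E0771-Res2 tumors. Parental replicate 1 stands above the other mice for Ccl8 and Ccl12 in Gpnmb+ Ctsk+ cells, at 572 and 1012 CPM.

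RNA of other cell types was present at low levels in Gpnmb+ Ctsk+ cells. All 12 T cell markers were detected, with 649 counts over all these cells, led by Cd4 (190), and all 9 natural killer cell markers, with 1226 counts led by Gzma (639). For neutrophils 8 of 11 markers gave 693 counts, led by Csf3r (456), with Ly6g, Camp and Ngp at 0. B and plasma cell markers gave 105 counts, of which Ighm held 68, with Ms4a1, Iglc2 and Jchain at 0, and dendritic cell markers 243, led by Ccr7 (144), with Xcr1 and Siglech at 0. Tumor epithelial and stromal markers gave 100 counts with 9 of 13 at 0, among them Epcam, Krt19 and Col1a1.

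Summed natural killer markers measured 344 CPM ± 263 (SD, n = 3) with E0771-Res2, 252 ± 344 (SD, n = 3) with E0771-Res1 and 44.9 ± 34.7 (SD, n = 2) in the parental group. T cell markers measured 151 ± 17.1, 105 ± 40.4 and 136 ± 37.6, and tumor or stromal markers 21.2 ± 4.15, 55.1 ± 53.8 and 16.7 ± 9.15 in the same order. For natural killer markers the parental mice (20.4 and 69.4) lay below all 3 E0771-Res2 mice (100.7 to 623), while E0771-Res1 overlapped both. Their part in the differences above was not tested. With at most 2 lymphoid UMIs per cell (520 of the 649 cells) 11 genes were called for E0771-Res2 against E0771-Res1, and the comparisons with parental tumors then had 1 parental mouse.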

How the data were processed

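The authors deposited raw UMI counts per gene and cell, 1 filtered matrix per mouse, made with Cell Ranger 6.1.2 (file headers) on mm10 (submitters' processing notes, which also name Seurat). Another parental mouse of the study's design was not analysed here. Cells were filtered and gated as described, and the cells and gene lists were chosen with earlier results of these data known. The counts of each mouse's cells of 1 class were added up where 10 or more cells were present and tested with edgeR 4.0.16 in R 4.3.3 (quasi-likelihood F test, TMM, filterByExpr, Benjamini-Hochberg adjustment over all genes tested, threshold 0.05), with a mouse block between classes and 1 fit over 3 groups between tumors. Mitochondrial, Rpl, Rps and Gm genes (8652 of 32285) were left out of library sizes and tests, and the gate genes Ctsk, Gpnmb, Folr2, Cd3d, Cd3e, Cd3g, C1qa, C1qb, C1qc and Adgre1 out of tests. Standard errors stand after ±. Shares were compared by exact permutation over mice, with code checked on simulated draws against scipy 1.17.1. Exact intervals were computed with scipy, and doublets were scored with Scrublet in scanpy 1.11.5. Each mouse is 1 replicate, and p-values measure the spread between mice. Named genes were the label markers, any gene of a list, and the 10 largest changes per direction with an adjusted p under 0.05, a mean log2 CPM no lower than 5 and the same sign in every mouse or, between tumors, no overlap. Gene positions are those of the annotation of GRCm38. Scripts were tested on simulated data. Alternatives included DESeq2 1.42.0, other gates, thinning, depth limits, a replicate block, and leaving out each mouse.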

Additional observations from a re-analysis of the deposited data

Results flagged for a closer look

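For 4 chemokines, the difference between resistant and parental tumors was not the same in Gpnmb+ Ctsk+ cells as in other macrophages of the same mice, by the interaction term of the edgeR fit. The change was -2.94 ± 0.41 on the log2 scale for Ccl8 (adjusted p = 0.00096), -1.88 ± 0.31 for Ccl12 (adjusted p = 0.0077), -1.26 ± 0.23 for Ccl7 (adjusted p = 0.021) and 2.77 ± 0.53 for Cxcl9 (adjusted p = 0.034).

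In Gpnmb+ Ctsk+ cells Ccl7 measured 954 and 540 CPM in the parental mice, 413, 668 and 23.3 in the E0771-Res1 mice and 338, 396 and 316 in the E0771-Res2 mice. Cxcl9 measured 52.0 and 20.4, then 235, 19.8 and 547, then 205, 91.4 and 144 CPM, while other macrophages ran from 267 to 641. For both genes the groups overlapped in Gpnmb+ Ctsk+ cells. A single cell of parental replicate 1 held 83 of its 165 Ccl7 counts, 149 of 175 Ccl12 counts and 45 of 99 Ccl8 counts, and a single cell of E0771-Res2 replicate 1 held 195 of its 362 Cxcl9 counts. Without parental replicate 1, without the highest 5% of Scrublet scores, with a looser gate or in DESeq2, none of the genes passed the test. DESeq2 gave 314 genes at an unadjusted p under 0.05. The part of these single cells in the differences was not tested.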

How the results depend on the processing

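The share of Gpnmb+ Ctsk+ cells was higher in E0771-Res2 than in parental and in E0771-Res1 tumors under every setting run, and between E0771-Res1 and parental it had no stable sign. The level moved with the gate, and of CD45+ cells the mean shares of E0771-Res2, E0771-Res1 and parental mice were 18.6%, 5.20% and 3.84% with a looser gate and 7.70%, 1.24% and 1.43% with a stricter one. With macrophages chosen by Csf1r and Ly6c2 the macrophage shares were 12.2% in E0771-Res2 and 1.38% in E0771-Res1 mice, and 0 of 64 and 0 of 32 cells in the parental mice, which allows up to 4.69% and 9.38% by counting error alone. Of CD45+ cells the difference of E0771-Res1 from parental was -0.209 points thinned to 3000 UMIs, -0.341 thinned to 5000, -0.192 with a stricter gate and -0.506 with a replicate block, and of macrophages -0.0824 with at most 2 lymphoid UMIs (chosen after seeing the data) and -1.21 with the block. Leaving out 1 mouse, CD45+ shares differed by -0.506 to 0.760 (E0771-Res1 against parental), 7.62 to 11.5 (E0771-Res2 against parental), 7.40 to 11.3 (E0771-Res2 against E0771-Res1) and 3.18 to 5.96 points (resistant against parental), and macrophage shares by -1.21 to 2.50, 10.6 to 13.5, 9.41 to 13.1 and 4.79 to 8.14.

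Counts of genes called moved as follows, and the cause was not tested. The mice fitted changed too, since the stricter gate and the limit of 2 lymphoid UMIs left out parental replicate 3 (9 cells), so that between tumors the lone parental mouse is assumed to vary like the other groups, and the looser gate added E0771-Res1 replicate 3. Against other macrophages (1628) there were 1023 with at most 2 lymphoid UMIs, 867 in the macrophage gate and 1054 to 1586 without 1 mouse. Against Folr2+ macrophages (1008) there were 592 in DESeq2, 482 with at least 20 cells, 583 with at most 2 lymphoid UMIs, 658 in the macrophage gate, 440 with the Csf1r and Ly6c2 gate and 775 to 1058 without 1 mouse. For resistant against parental (13) there were 39 in DESeq2, 20 without TMM, 103 without a filter, 36 without the highest Scrublet scores, 1 with a looser gate, 3 with at most 2 lymphoid UMIs and 3 to 58 without 1 mouse. For E0771-Res1 against parental (31) these were 54 in DESeq2, 111 without a filter, 10 with a stricter gate, 2 with a looser one, 8 at 5000 to 20000 UMIs, 7 with at most 2 lymphoid UMIs, 10 with the replicate block and 8 to 55 without 1 mouse. For E0771-Res2 against parental (5) they were 19 in DESeq2, 66 without a filter, 13 without the highest Scrublet scores, 2 with a looser gate, 11 at 5000 to 20000 UMIs, 8 with the block and 0 to 33 without 1 mouse. For E0771-Res2 against E0771-Res1 (23) they were 99 without a filter, 12 with a stricter gate, 66 with a looser one, 8 at 5000 to 20000 UMIs, 11 with at most 2 lymphoid UMIs, 13 with the block and 10 to 46 without 1 mouse. For the interaction (4) they were 0 in DESeq2, 28 without a filter, 0 without the highest Scrublet scores, 0 with a looser gate and 0 to 5 without 1 mouse. Without the highest Scrublet scores Ccl12 changed sign, to 0.0531 in E0771-Res2 against parental and 0.0201 in the interaction.

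Correlations of same-numbered and other mice ran from -0.04 to 0.04. With so few fitted mice per group they cannot decide whether replicate numbers paired the mice. The setting with at least 20 cells could not be run for comparisons with parental tumors. Named genes kept their call in 399 of 400 alternative fits against other macrophages and 400 of 409 against Folr2+ macrophages, but in 99 of 170 for resistant against parental, 199 of 336 for E0771-Res1 against parental, 40 of 68 for E0771-Res2 against parental, 182 of 232 for E0771-Res2 against E0771-Res1 and 35 of 64 for the interaction. In the parental and E0771-Res1 mice fitted, the tumor comparisons rest on 12 to 33 cells each.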
